A study of Homo sapiens with 8 samples.

Results

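Heparan sulfate is a long sugar chain, carried by proteins at the cell surface, that holds growth factors and guidance cues near their receptors. The 35 genes described here encode 25 enzymes that build and edit the chain and 10 proteins that carry it, of which 4 are syndecans and 6 are glypicans. They were chosen by gene symbol out of 47591 entries of the expression table. The family was proposed with the values of the comparisons below already known, so those values describe the genes and are not independent evidence about the family. Counts over the family carry no test for the same reason.

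The RNA came from SH-SY5Y, a human neuroblastoma line, in 3 versions that were compared in pairs. G2 cells (3 libraries) carried an edit made by CRISPR/Cas9 with a guide to PRPF40B, which encodes a splicing factor. They had been selected with puromycin and grown from single colonies by limiting dilution. SCR cells (3 libraries) carried a scrambled control guide, and WT cells (2 libraries) were not edited. A cell line grown from a colony is 1 clone, so an effect of the guide and a difference between clones cannot be told apart in G2. The study's methods name G2 and SCR, and not WT, among the lines kept in puromycin, so the drug and the guide cannot be told apart in comparisons with WT. The labels call the libraries of a line biological replicates and do not say whether each had its own culture, and the tests measure the spread between these libraries.

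Synthesis of the chain runs in a fixed order in the Golgi. Xylosyltransferases put the first sugar on a serine of the carrier protein, other enzymes complete a short linker, and the exostosins then start and lengthen the chain. N-deacetylase/N-sulfotransferases, an epimerase and the 2-O-, 6-O- and 3-O-sulfotransferases modify it in patches, and endosulfatases at the cell surface remove 6-O-sulfate again. The resulting pattern of sulfate sets which proteins a chain can bind.

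Values are normalized counts, that is counts of reads per gene divided by a size factor for each library. Between 59804395 and 81080747 counts per library were recovered from the steps of the values, and 71.3% to 75.6% of the counts from 1 to 30 in a library were multiples of 3. Of the 21 such counts in the genes described here, 7 were multiples of 3. The floor of 9 counts and the counting intervals below take 3 counts as 1 sequenced fragment. The small counts of these genes do not bear this unit out, and it makes the intervals wider than single counts would. PRPF40B, the targeted gene, read 840.2, 840.9 and 918 in G2, 1686, 1672 and 1669 in SCR, and 1972 and 1668 in WT. It lay lower in every G2 library than in every control library, with a log2 fold change of -0.95 relative to SCR and -1.07 relative to WT, and its RNA was still present in G2. A gene was called differentially expressed (DE) when its fold change was at least 1.5 and its unadjusted p from limma was at most 0.05. Log2 fold changes are given with their standard error on the scale of log2(normalized count + 1), which understates changes of low genes, and means are given with their SD over the libraries of a line.

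Of the 35 genes, 30 reached the mean of 10 normalized counts that the test required. HS3ST3A1 and HS3ST3B1 reached it only through their G2 values. In the G2 counts here and below they could hardly have been anything but higher. HS3ST1, HS3ST4, NDST4 and SULF1 were at 0 in every library, and HS3ST6 had 2.82 in G2 replicate 1 and 0 elsewhere. In G2/SCR, 15 of the 30 were higher (15.1% of all 18947 genes tested were called higher) and 3 were lower (11.8% of all genes). In G2/WT, 18 were higher (17.7% of all genes) and 2 were lower (12.2% of all genes). In SCR/WT, the comparison of both controls, 7 were higher (10.7% of all genes) and 5 were lower (5.63% of all genes). With limma's p adjusted by Benjamini-Hochberg over all genes and held to the same threshold, the counts were 15 and 3, 18 and 2, and 6 and 5. The median log2 fold change of the 30 genes was 0.63 (G2/SCR), 0.80 (G2/WT) and 0.06 (SCR/WT), against -0.01, 0.00 and 0.01 over all genes tested.

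**Figure D1:**
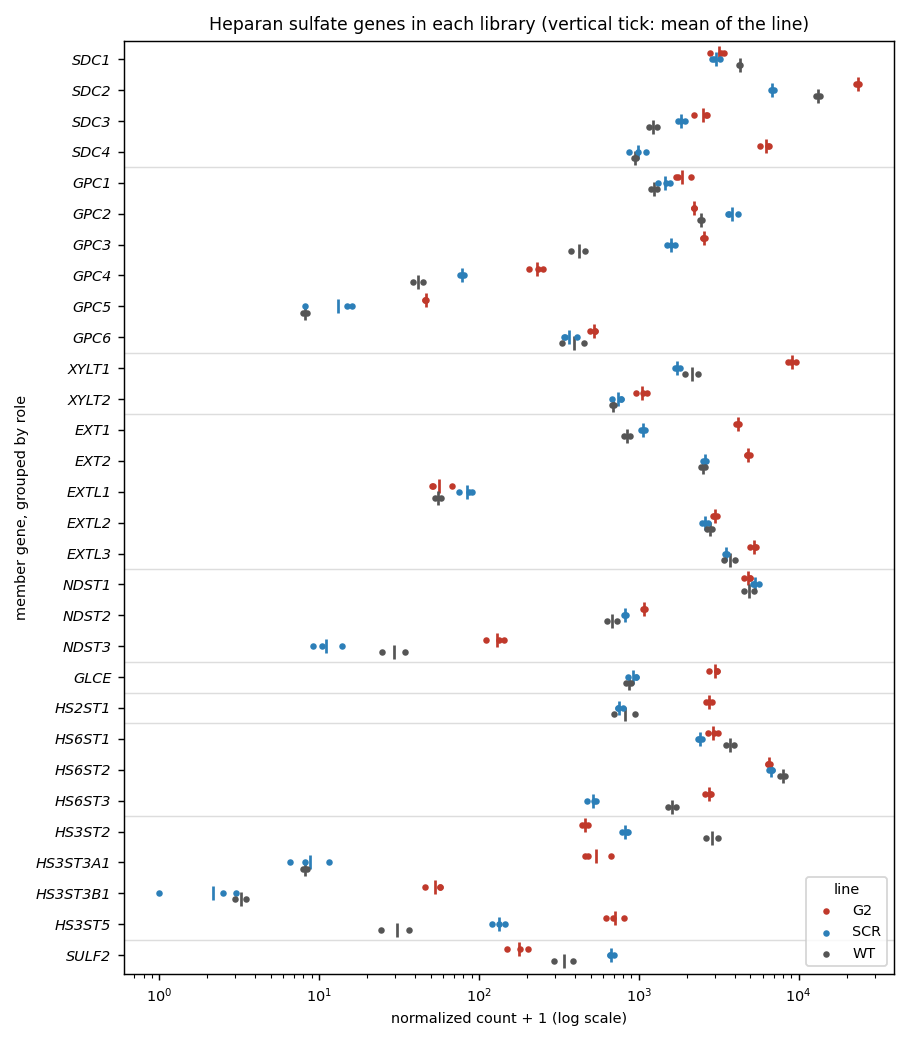
Normalized count + 1 on a log axis for the 30 genes tested, one point per library, with G2 in red, SCR in blue and WT in grey and the mean of each line as a vertical tick. The G2 points of SDC4, XYLT1, EXT1, GLCE and HS2ST1 lie to the right of all control points, and those of HS3ST2 and SULF2 lie to the left.

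The G2 libraries were also set against both controls at once. All 3 G2 libraries lay above all 5 control libraries in 22 of the 30 genes (22.8% of all genes) and below them in 3 (19.7% of all genes), namely GPC2, HS3ST2 and SULF2. Both G2 comparisons called 17 genes in the same direction, 15 higher and 2 lower. Of these, 9 were not DE between the controls, all of them higher in G2 (8.13% of all genes were called in this way) and none lower (5.63% of all genes). They were SDC4, GPC5, XYLT1, EXT1, EXT2, GLCE, HS2ST1, HS3ST3A1 and HS3ST3B1, and EXT1 left this group when all libraries were scaled to the same total, which moved its SCR/WT value to 0.61. HS3ST3A1 and HS3ST3B1 reached the mean of 10 through G2, and with few counts in both controls a difference between SCR and WT could hardly have been called for them, which leaves 7 others. Of these 7, GPC5 also had few control counts, with 42 in SCR and 13 in WT. Its SCR/WT value of 0.62 ± 0.46 reached the required fold but not the required p, so the controls were not shown to be alike for it. The other 8 of the 17 genes were also DE in SCR/WT. SCR lay between WT and G2 for GPC3, GPC4, HS3ST5 and HS3ST2, and beyond WT on the side away from G2 for SDC2, NDST3, HS6ST3 and SULF2.

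**Figure D2:**
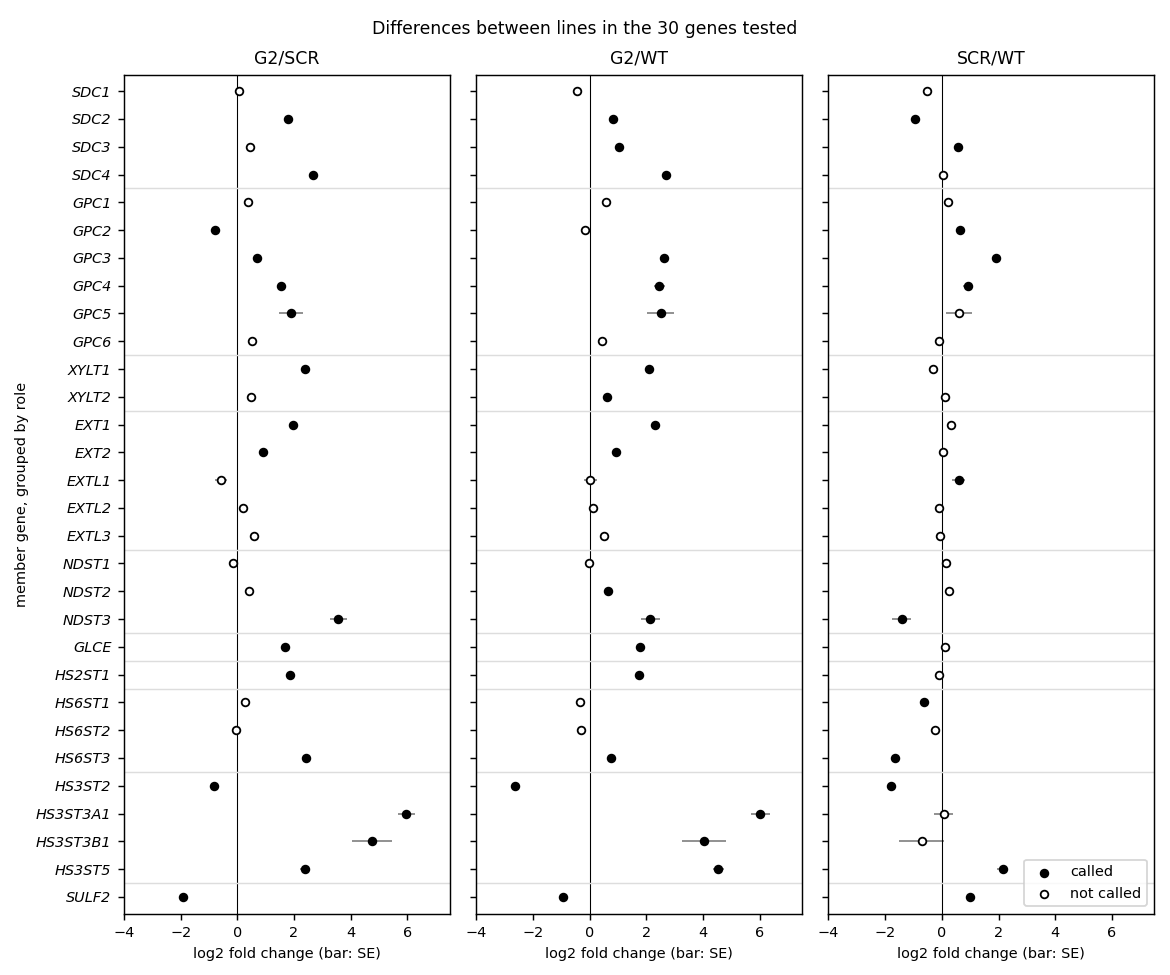
Log2 fold change of the 30 genes in G2/SCR, G2/WT and SCR/WT, with bars for the standard error of the fit. Filled points were called, open points were not, and the largest values in both G2 comparisons are those of HS3ST3A1, at 5.96 and 6.02.

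The syndecans are transmembrane carriers that act as co-receptors and link the cell surface to the cytoskeleton. SDC4, which sits in focal adhesions, read 6544, 6401 and 5711 in G2, 869.5, 1106 and 995 in SCR, and 967 and 936 in WT. The controls overlapped and all G2 libraries were far above them, at 6.28-fold the SCR mean and 6.53-fold the WT mean. Log2 fold changes were 2.65 ± 0.09 (G2/SCR), 2.704 ± 0.10 (G2/WT) and 0.05 ± 0.10 (SCR/WT).

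SDC2, a syndecan of neurons and mesenchymal cells, read 23558, 22955 and 23998 in G2, 6823, 7026 and 6679 in SCR, and 13518 and 12859 in WT. None of the lines overlapped, and WT stood in the middle. Log2 fold changes were 1.78 ± 0.05 (G2/SCR), 0.83 ± 0.05 (G2/WT) and -0.95 ± 0.05 (SCR/WT). SDC3, the syndecan named for its abundance in the nervous system, read 2227, 2668 and 2644 in G2, 1938, 1768 and 1835 in SCR, and 1157 and 1308 in WT. The order was G2, SCR, WT without overlap, and the gene was called only against WT, at 1.03 ± 0.09 for G2 and 0.585 ± 0.09 for SCR. The SCR call stood at the threshold, and the value was 0.55 without SCR replicate 1 and 0.50 without WT replicate 1. SDC1, the main syndecan of epithelia, lay between 2807 and 4316 over the 8 libraries, was highest in WT and was not called in any comparison.

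Levels of different genes can be compared only per length of transcript. In normalized counts per kb of the main (MANE) transcript, the 4 syndecans summed to 10967 ± 55.4 in G2, 3755 ± 63.3 in SCR and 5943 ± 140.5 in WT (SD over 3, 3 and 2 libraries, as for all sums and shares per kb). SDC2 was the largest share in every line, with 64.8% ± 1.17 in G2, 55.1% ± 0.73 in SCR and 67.1% ± 0.78 in WT. SDC1 was second in both controls, at 25.4% ± 1.44 in SCR and 22.8% ± 0.35 in WT, and fell behind SDC4 in G2, where SDC4 made up 21.7% ± 1.66 and SDC1 9.12% ± 0.90.

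The glypicans are carriers anchored to the membrane by a lipid, and they modulate Wnt, Hedgehog, BMP and FGF signals. GPC3, a glypican of embryonic tissue, read 2615, 2518 and 2539 in G2, 1590.0, 1697 and 1496 in SCR, and 463 and 377 in WT. The lines stood apart in the order G2, SCR, WT, at 0.68 ± 0.08 on the log2 scale for G2/SCR and 1.93 ± 0.09 for SCR/WT, so the larger step lay between the controls. GPC4, which neural cells and astrocytes use, followed the same order, with 204, 232 and 249 in G2, 75.5, 79.8 and 77.1 in SCR, and 43.5 and 37.7 in WT. Log2 fold changes were 1.54 ± 0.16 (G2/SCR), 2.46 ± 0.18 (G2/WT) and 0.92 ± 0.18 (SCR/WT).

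GPC2, a glypican of developing neurons that is abundant in neuroblastoma, was highest in SCR and lowest in G2. It read 2224, 2204 and 2226 in G2, 3652, 3593 and 4171 in SCR, and 2497 and 2419 in WT. SCR was the line that stood out, and the 3 G2 libraries lay just below both WT libraries. GPC2 was DE in G2/SCR at -0.78 ± 0.07 and in SCR/WT at 0.63 ± 0.07, but not in G2/WT at -0.15 ± 0.07. Without SCR replicate 3, its SCR/WT value was 0.56 and was no longer called. The GAL3ST4 entry overlaps GPC2, with mean normalized counts of 389 in G2, 219.5 in SCR and 122.8 in WT. Unlike GPC2, it was higher in G2 than in both controls. Like GPC2, it was higher in SCR than in WT. Whether reads were counted by strand is not given in the sources used here, so reads of overlapping genes cannot be told apart.

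GPC5 was low throughout, with 45.2, 46.0 and 45.1 in G2, 7.14, 14.1 and 15.1 in SCR, and 7.45 and 6.95 in WT. All 3 G2 libraries exceeded all controls, by 3.75-fold over SCR (95% interval 1.96 to 7.20, counting error only) and at least 4.52-fold over WT, whose libraries held no more than 9 counts each. GPC1 and GPC6 were higher in every G2 library than in every control library by less than the required fold. GPC1 had 0.36 ± 0.10 relative to SCR and 0.58 ± 0.11 relative to WT, and passed in G2/WT without G2 replicate 1 (0.64), without G2 replicate 2 (0.62) and without WT replicate 1 (0.64). GPC6 had 0.52 ± 0.13 and 0.43 ± 0.14, and passed without SCR replicate 1 (0.61, G2/SCR) and without WT replicate 2 (0.66, G2/WT). Without WT replicate 1 the G2/WT value was 0.20.

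Summed per kb, the 6 glypicans gave 2636 ± 65.1 in G2, 2659 ± 112 in SCR and 1551 ± 57.6 in WT, so G2 and SCR did not differ beyond their spread. The make-up differed. GPC2 was the leading glypican in SCR at 56.1% ± 2.28 and in WT at 62.2% ± 0.91, and GPC3 led in G2 at 42.8% ± 1.40, with GPC2 at 33.1% ± 0.68. GPC3 held 26.5% ± 2.69 of the sum in SCR and 11.9% ± 1.28 in WT.

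**Figure D3:**
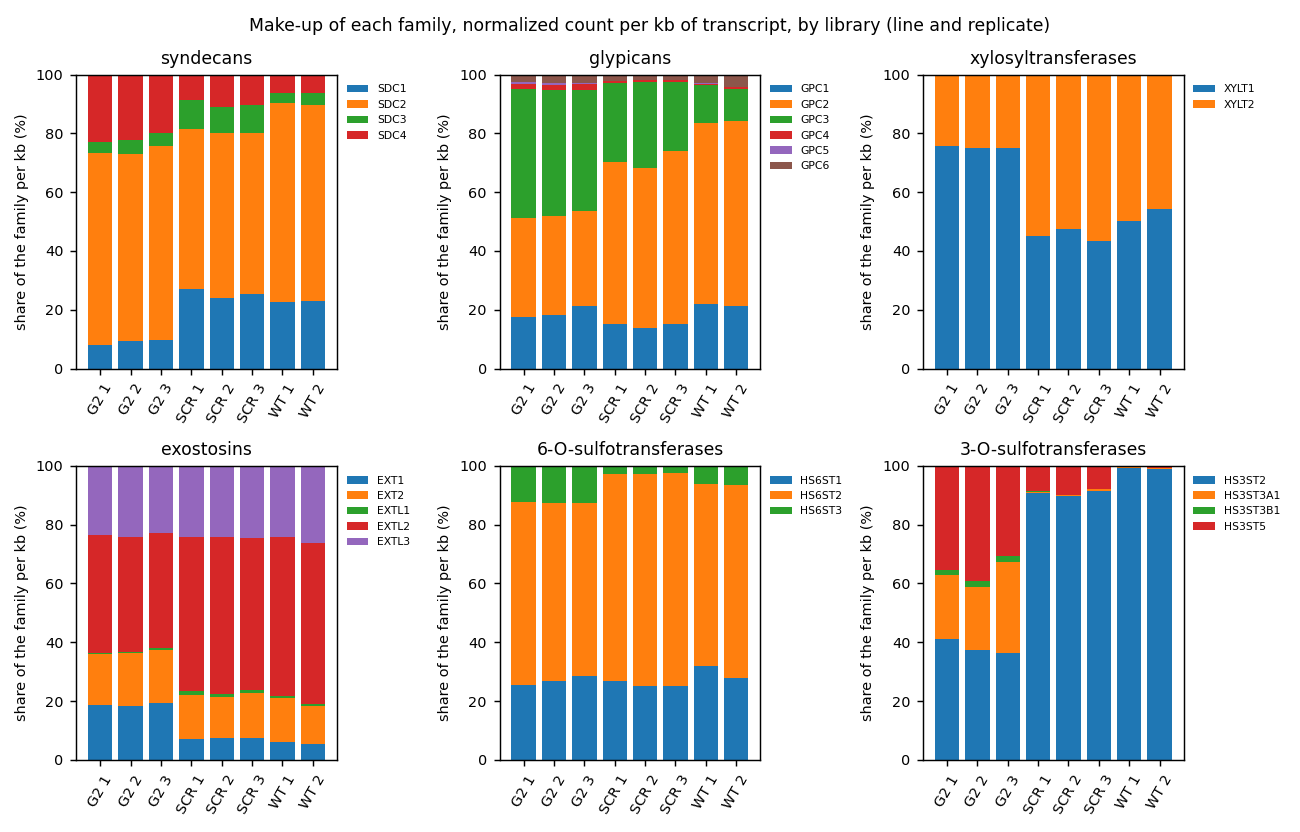
Share of each gene in its family, in percent of the summed normalized count per kb, as 1 stacked bar per library. The 3 libraries of G2 resemble each other in every family, and the 3-O-sulfotransferase bars change from almost only HS3ST2 in WT (99.2%) to 3 genes of 24.8% to 38.2% in G2.

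XYLT1 and XYLT2 catalyse the first step, the transfer of xylose, which serves chondroitin sulfate as well. XYLT1 read 8606, 9656 and 8986 in G2, 1810.5, 1744 and 1674 in SCR, and 1939 and 2358 in WT. Every G2 library held more than 3 times the highest control value, and the log2 fold change was 2.38 ± 0.08 relative to SCR and 2.08 ± 0.09 relative to WT against -0.30 ± 0.09 between the controls. XYLT2 read 963, 1123 and 1058 in G2, 777, 681 and 774 in SCR, and 678 and 696 in WT. It rose in G2/WT alone, at 0.61 ± 0.10, with 0.49 ± 0.09 in G2/SCR, and the call was lost without G2 replicate 2 (0.56). Per kb, both enzymes summed to 1210 ± 75.7 in G2, 387 ± 17.0 in SCR and 411 ± 33.3 in WT, and the part of XYLT1 was 75.3% ± 0.49 in G2, 45.2% ± 2.09 in SCR and 52.3% ± 2.98 in WT. With the length of all exons in place of the main transcript, XYLT1 held 53.7% in SCR, so which enzyme was higher there depended on the length used. An unnamed entry within XYLT1 moved with it, at means of 46.8 in G2, 7.79 in SCR and 14.8 in WT.

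The exostosins form the backbone of the chain, and EXT1 and EXT2 work together as its polymerase. EXT1 read 4252, 4062 and 4202 in G2, 1040.0, 1089 and 1063 in SCR, and 883 and 806 in WT. G2 stood apart by 3.92-fold from SCR and 4.94-fold from WT, or 1.97 ± 0.06 and 2.30 ± 0.07 on the log2 scale, while SCR/WT stood at 0.33 ± 0.07. EXT2 read 4737, 4937 and 4788 in G2, 2600.4, 2539.5 and 2621 in SCR, and 2584 and 2437 in WT. It rose less than its partner, by 0.90 ± 0.05 relative to SCR and 0.94 ± 0.06 relative to WT, and the controls overlapped.

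EXTL3, which adds the sugar that commits the linker to heparan sulfate, lay between 4991 and 5432 in G2 and between 3433 and 4003 in the controls. The ranges did not overlap, and its log2 fold changes of 0.58 ± 0.07 and 0.50 ± 0.07 missed the required fold. It passed in G2/SCR without G2 replicate 3 (0.61) or SCR replicate 2 (0.59), and in G2/WT without WT replicate 2 (0.61). EXTL2 had 0.20 ± 0.06 and 0.11 ± 0.07. EXTL1, at 49.9 to 89.8, was called only in SCR/WT, at 0.60 ± 0.23, and that call was lost without SCR replicate 1 (0.54), SCR replicate 3 (0.58) or WT replicate 1 (0.54), and under adjustment of p. In G2/SCR, EXTL1 had -0.58 ± 0.21 and was called without G2 replicate 3 (-0.71) or SCR replicate 2 (-0.66). Per kb, EXT1 made up 18.8% ± 0.56 of the 5 exostosins in G2, 7.34% ± 0.15 in SCR and 5.71% ± 0.65 in WT, and EXTL2 was the largest in each line, at 39.3% to 54.5%.

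The first modification replaces acetyl groups by sulfate and is carried out by the NDST enzymes. NDST1, the broadly expressed form, lay between 4546 and 5632 in all libraries and was called in no comparison. NDST2 read 1085, 1089.5 and 1061 in G2, 805, 828 and 815 in SCR, and 730.1 and 634 in WT. The G2 libraries were the highest, and only G2/WT passed, at 0.66 ± 0.09, which fell to 0.56 without WT replicate 2. CAMK2G overlaps NDST2 and had means of 1958, 2444 and 2358 in G2, SCR and WT. NDST3, a form of the nervous system, was low, with 134, 143 and 109.6 in G2, 8.16, 9.38 and 12.8 in SCR, and 33.5 and 23.8 in WT. G2 exceeded SCR by 12.7-fold (95% interval 6.81 to 24.9, counting error only), and WT lay between them. NDST3 still made up only 2.44% ± 0.34 of the NDST sum per kb in G2, where NDST1 held 66.0% ± 1.41, and the sum was 911 ± 27.8 in G2, 889.5 ± 25.9 in SCR and 799.7 ± 43.0 in WT.

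GLCE, the epimerase that turns glucuronic into iduronic acid, read 3076, 2758 and 3103 in G2, 954, 861 and 955 in SCR, and 832 and 896 in WT. HS2ST1, the only 2-O-sulfotransferase and the enzyme that acts on that iduronic acid, read 2744, 2857 and 2649 in G2, 739, 796 and 737 in SCR, and 704 and 944 in WT. Both of these consecutive steps rose in G2, by 1.69 ± 0.08 (GLCE) and 1.86 ± 0.10 (HS2ST1) over SCR, and by 1.78 ± 0.08 and 1.75 ± 0.11 over WT, on the log2 scale. Neither was DE between the controls, at 0.10 ± 0.08 and -0.11 ± 0.11.

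The 6-O-sulfotransferases add the sulfate that FGF signalling depends on. HS6ST2, the most abundant per kb at 60.6% ± 1.71 of the 3 enzymes in G2, 71.8% ± 1.13 in SCR and 63.8% ± 2.43 in WT, lay between 6400.1 and 8231 and was not called. HS6ST1 lay between 2363 and 3963 and was DE only in SCR/WT, at -0.63 ± 0.08, a call lost without WT replicate 1 (-0.55) and with all libraries scaled to the same total (-0.36). HS6ST3 read 2585, 2821 and 2799 in G2, 543, 526 and 472 in SCR, and 1526 and 1709.7 in WT. It was the member of its family called in the G2 comparisons, at 2.41 ± 0.08 relative to SCR and 0.76 ± 0.09 relative to WT, while SCR/WT stood at -1.65 ± 0.09. Its share per kb was 12.5% ± 0.27 in G2, 2.69% ± 0.21 in SCR and 6.36% ± 0.42 in WT.

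The 3-O-sulfotransferases add the rarest sulfate, and their members make different binding sites. HS3ST2, a form of the brain, read 483, 462 and 439 in G2, 843, 782 and 853 in SCR, and 3122 and 2636 in WT. It was lower in both guide-carrying lines than in WT and lowest in G2, with log2 fold changes of -0.84 ± 0.08 (G2/SCR), -2.63 ± 0.09 (G2/WT) and -1.80 ± 0.09 (SCR/WT). HS3ST5, which can make the binding site for antithrombin and for herpes simplex virus entry, ran in the other direction with 685, 808 and 621 in G2, 134, 145 and 120.2 in SCR, and 23.6 and 35.7 in WT. Log2 fold changes were 2.39 ± 0.17 (G2/SCR), 4.54 ± 0.19 (G2/WT) and 2.15 ± 0.19 (SCR/WT). HDAC2-AS2 overlaps HS3ST5 and had means of 44.6, 75.1 and 29.0 in G2, SCR and WT.

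HS3ST3A1 showed the largest difference of the family. It read 461, 479.6 and 675 in G2, 7.14, 5.63 and 10.6 in SCR, and 7.45 and 6.95 in WT. The G2 mean was 69.2-fold that of SCR (95% interval 34.9 to 147, counting error only, from 27 counts in SCR) and at least 53.6-fold that of WT, where no library held more than 9 counts. HS3ST3B1, its near copy on the same chromosome, read 45.2, 55.8 and 55.9 in G2 and between 0 and 2.48 in the 5 controls, all at or under 9 counts. G2 exceeded SCR at least 6.42-fold and WT at least 5.20-fold. Both genes encode enzymes with nearly the same catalytic domain, and how reads that match both were treated is not given in the sources used here, so the split between them is uncertain. MGC12916 overlaps HS3ST3B1 and moved with it, at means of 26.4 in G2, 3.74 in SCR and 2.86 in WT.

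Per kb, the 3-O-sulfotransferases summed to 519 ± 13.6 in G2, 391 ± 14.2 in SCR and 1246 ± 145 in WT. HS3ST2 made up 99.2% ± 0.26 of that sum in WT, 90.6% ± 0.97 in SCR and 38.2% ± 2.52 in G2. In G2, HS3ST5 held 35.0% ± 4.21 and HS3ST3A1 24.8% ± 5.36, while in SCR they held 8.82% ± 1.14 and 0.473% ± 0.142. HS3ST2 and HS3ST5 did not differ beyond their spread in G2. With the length of all exons the shares of HS3ST2, HS3ST5 and HS3ST3A1 in G2 were 36.3%, 35.6% and 25.9%.

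The 250 bases before the start of transcription are shown for 3 of these enzymes, since HS3ST3A1 and HS3ST3B1 rose together while HS3ST2 fell, and for SDC4, the syndecan or glypican with the largest rise over SCR. They are RefSeq sequences of GRCh38.p14, read 5′ to 3′ toward the gene, and capitals mark the GC box GGGCGG or its reverse complement CCGCCC and the E-box CACGTG. The stretches are chr17:13601930-13602179 on the minus strand for HS3ST3A1, chr17:14300831-14301080 on the plus strand for HS3ST3B1, chr16:22813912-22814161 on the plus strand for HS3ST2 and chr20:45348425-45348674 on the minus strand for SDC4.
HS3ST3A1: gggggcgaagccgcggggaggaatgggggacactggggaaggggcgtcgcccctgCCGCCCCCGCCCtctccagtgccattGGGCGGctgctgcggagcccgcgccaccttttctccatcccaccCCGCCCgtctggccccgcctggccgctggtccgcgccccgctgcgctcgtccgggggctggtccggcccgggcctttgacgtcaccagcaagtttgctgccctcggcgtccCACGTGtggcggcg
HS3ST3B1: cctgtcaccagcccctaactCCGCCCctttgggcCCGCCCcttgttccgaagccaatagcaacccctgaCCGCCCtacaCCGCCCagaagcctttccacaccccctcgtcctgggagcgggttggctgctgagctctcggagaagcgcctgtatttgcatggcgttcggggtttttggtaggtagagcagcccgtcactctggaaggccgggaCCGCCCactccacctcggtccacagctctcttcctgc
HS3ST2: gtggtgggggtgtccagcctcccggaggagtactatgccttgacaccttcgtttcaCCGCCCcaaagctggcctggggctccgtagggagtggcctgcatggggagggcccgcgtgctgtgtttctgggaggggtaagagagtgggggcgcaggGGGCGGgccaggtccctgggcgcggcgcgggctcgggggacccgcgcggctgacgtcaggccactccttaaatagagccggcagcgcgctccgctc
SDC4: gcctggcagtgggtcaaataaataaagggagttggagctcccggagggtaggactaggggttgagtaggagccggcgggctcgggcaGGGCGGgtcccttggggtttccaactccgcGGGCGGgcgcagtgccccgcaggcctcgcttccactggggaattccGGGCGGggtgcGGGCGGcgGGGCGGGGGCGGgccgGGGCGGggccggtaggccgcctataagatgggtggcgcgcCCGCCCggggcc

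GC boxes were found 4 times before HS3ST3A1, 5 times before HS3ST3B1, 2 times before HS3ST2 and 8 times before SDC4. The E-box had 1 match before HS3ST3A1 and none in the other 3 stretches. Of the 35 genes, 30 had a promoter in the RefSeq table, and 23 of them (76.7%) held a GC box on either strand, against 42.6% of all 35116 promoters of the same length. These are not the 30 genes tested. EXT1, EXTL3, GPC3, SDC2 and SULF1 had no promoter there, and the untested HS3ST1, HS3ST4, HS3ST6 and NDST4 are included. For each of the 30 genes with a promoter only the one nearest the gene start was taken, while the comparison took every promoter, so the selections differ. The E-box was in 6.67% against 6.34%, the AP-1 motif TGANTCA in 6.67% against 6.57%, and the TATA box TATAAA in 13.3% against 10.7%. The median GC content was 67.2% for the 30 genes with a promoter and 58.0% for all promoters. The GC box is itself GC-rich and was present in each of the stretches shown. It was absent before SULF2, which was lower in both G2 comparisons, and before EXT2 and HS6ST3, which were higher in both. A match is a run of letters and says nothing about binding.

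SULF2, the endosulfatase that trims 6-O-sulfate from finished chains and was the only one of its family above 0, read 149.6, 181 and 201 in G2, 663, 657 and 701 in SCR, and 389 and 295 in WT. The lines did not overlap, and G2 and SCR lay on opposite sides of WT. Log2 fold changes were -1.93 ± 0.13 (G2/SCR), -0.94 ± 0.15 (G2/WT) and 0.99 ± 0.15 (SCR/WT).

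Neighbours on the chromosome were examined next. For each gene, the 20 nearest genes whose mean reached 100 were taken, 10 on each side. Their median log2 fold change stayed between -0.24 and 0.35 against SCR and between -0.30 and 0.34 against WT for the 27 tested genes outside chromosome 8. SDC2 and EXT1 on chromosome 8 differed, with neighbour medians of 0.82 and 0.69 against SCR and of 0.69 and 0.51 against WT. Of their 20 neighbours, 12 and 14 were called higher in G2/SCR and 11 and 7 in G2/WT. SDC2 itself had 0.83 in G2/WT, where 9 of its neighbours had a larger value. Over chromosome 8, 31.7% of the 464 genes that reached this mean were called higher in G2/SCR, against 14.7% of 13065 such genes in the whole table. Some members share neighbours, namely GPC5, GPC6 and HS6ST3 on chromosome 13, GPC3, GPC4 and HS6ST2 on chromosome X, and HS3ST3A1 and HS3ST3B1 on chromosome 17. What part of the SDC2 and EXT1 differences goes with this region was not tested. SDC4, XYLT1, HS3ST3A1 and HS3ST5 exceeded each of their 20 neighbours in both G2 comparisons, and HS3ST2 lay below each of its own. HS3ST3A1 was tested only through its G2 values. The share of all genes that stand apart from their neighbours in this way was not determined.

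**Figure D4:**
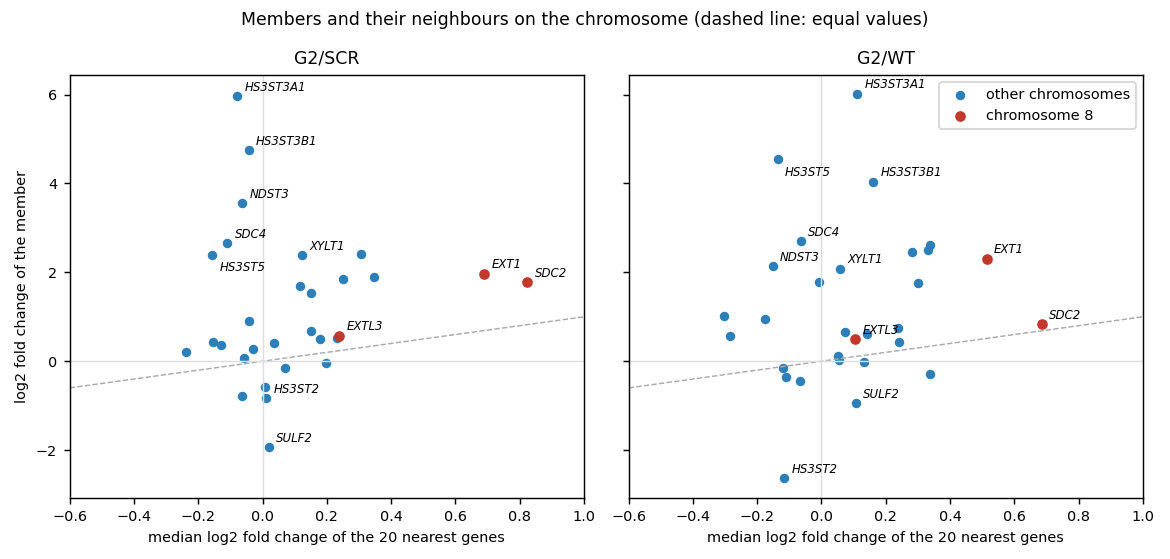
Log2 fold change of each of the 30 genes against the median of its 20 nearest expressed genes, for G2/SCR and G2/WT, with the genes of chromosome 8 in red. SDC2 and EXT1 lie at neighbour medians of 0.51 or more, and the other genes lie between -0.30 and 0.35.

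Other genes of the pathway were taken from lists by role. Their counts are read beside the shares of all genes tested, which were 15.1% higher and 11.8% lower for G2/SCR, 17.7% and 12.2% for G2/WT, and 10.7% and 5.63% for SCR/WT. Of the 5 genes for making the linker, 0 passed against SCR and 1 against WT, namely B3GAT3, which adds the last sugar, at 0.55 ± 0.09 and 0.72 ± 0.10, and 0 were called in SCR/WT. The genes that supply sugar nucleotides and sulfate donor had 6 of 14 tested members higher and none lower in G2/SCR, and 7 and none in G2/WT, with 2 higher in SCR/WT. UGDH, which makes the glucuronic acid donor, had means of 2308 ± 123.5 in G2, 1037 ± 67.9 in SCR and 1031 ± 71.1 in WT. BPNT2, which clears a by-product of sulfation in the Golgi, rose by 1.07 ± 0.07 relative to SCR and 1.13 ± 0.07 relative to WT, and it lies on chromosome 8.

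Lysosomal breakdown of the chain had 3 of 8 tested genes higher and 1 lower against SCR, and 4 higher against WT, with 2 higher and 1 lower in SCR/WT. GUSB and HGSNAT, enzymes of this breakdown, rose, at 1.59 ± 0.08 and 0.71 ± 0.05 in G2/SCR. In G2/WT they had 0.73 ± 0.08 and 1.065 ± 0.06. GUSB was also called lower in SCR than in WT, at -0.86 ± 0.08. The heparanase genes HPSE and HPSE2 were too low to be tested.

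Carriers outside both families had 6 of 8 tested genes higher than in SCR and 7 higher than in WT, and none lower. In SCR/WT, 2 were higher and 1 was lower. AGRN, the agrin of basement membranes and synapses, rose by 1.31 ± 0.11 and 0.99 ± 0.12. CD44 had means of 852 in G2, 179 in SCR and 83.2 in WT, and NRP1, a receptor for semaphorins and VEGF, 458, 55.4 and 9.06. Both were also higher in SCR than in WT, by 1.09 ± 0.19 and 2.54 ± 0.25.

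Shedding and release from the cell surface had 5 of 11 tested genes higher and 1 lower in G2/SCR, and 5 and none in G2/WT, with 1 each way in SCR/WT. The proteases ADAMTS1 and ADAMTS4 rose by 0.82 ± 0.06 and 0.94 ± 0.07 in G2/SCR, while MMP2 fell by 0.60 on the log2 scale. Of 6 partners of the syndecan tail, SDCBP (syntenin) rose in both G2 comparisons, by 1.15 ± 0.05 and 0.90 ± 0.06, and it lies on chromosome 8. PRKCA, a kinase that binds the tail of syndecan-4, was called in G2/WT at 1.04 ± 0.07 and had 0.55 ± 0.07 in G2/SCR. None of these 6 was called in SCR/WT.

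Proteins that bind heparan sulfate had 11 of 17 tested genes higher and 1 lower in G2/SCR, and 11 higher and 2 lower in G2/WT, with 5 higher and 3 lower in SCR/WT. PTN, the growth factor pleiotrophin, had means of 269427 in G2, 26274 in SCR and 12502 in WT. HGF read 7096 ± 114 in G2 and 176 ± 14.9 in SCR and was at the floor of 9 counts in WT. SLIT2, an axon guidance cue, had 1504 ± 28.9 in G2, 147.5 ± 7.48 in SCR and 115 ± 20.9 in WT. The chondroitin sulfate enzymes, which compete for the same linker, had 4 of 12 tested genes higher and 2 lower against SCR, 2 higher and 1 lower against WT, and 1 higher and 2 lower in SCR/WT. CHPF2 rose by 1.10 ± 0.06 relative to SCR and by 1.17 ± 0.07 relative to WT. CHST11 (0.90 ± 0.07) and CHST15 (-1.53 ± 0.12) were called in G2/SCR but had 0.06 ± 0.08 and 0.08 ± 0.14 in G2/WT. In SCR/WT they were called at -0.83 ± 0.08 and 1.61 ± 0.14, so that SCR stood apart from both other lines.

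**Figure D5:**
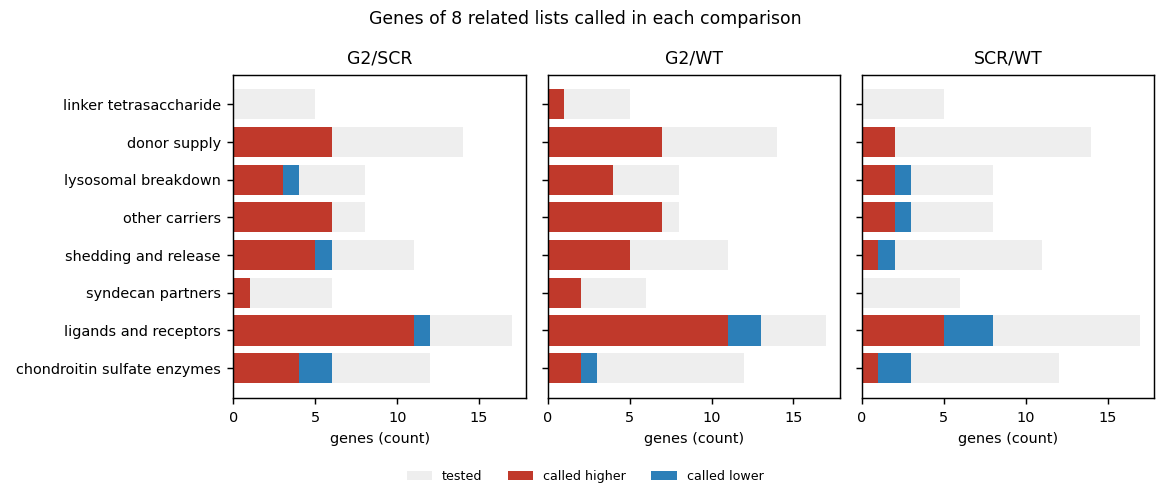
Number of genes tested (grey) and called higher (red) or lower (blue) in each of 8 related lists, for the 3 comparisons. Ligands and receptors have 11 of 17 genes called higher in both G2 comparisons, and the linker enzymes have 0 of 5 called in G2/SCR.

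Counts of cell type markers are read beside the same shares of all genes tested. These were 15.1% higher and 11.8% lower for G2/SCR, 17.7% and 12.2% for G2/WT, and 10.7% and 5.63% for SCR/WT. Of 10 noradrenergic neuroblastoma markers, 7 were lower than in SCR, 7 were lower than in WT and none was higher. Their summed normalized count was 266250 to 270772 in G2, 366086 to 377529 in SCR and 330263 to 341747 in WT. STMN2 was called in no comparison and made up most of this sum in G2. Its means were 165517 in G2, 170244 in SCR and 116782 in WT, so the sums largely follow 1 gene. TH was near 0 in all lines, at means of 1.88, 14.0 and 16.9. Of 9 tested fibroblast and mesenchymal markers, 7 were higher in both G2 comparisons, and 4 were higher in SCR/WT. PDGFRA and PDGFRB were called in no comparison. The sum over this list was 93292.5 to 96514 in G2, 11162 to 11620 in SCR and 5999.6 to 6946 in WT. COL3A1 and DCN made up most of it in G2, at means of 40955 and 37183. Among the defining genes of that list, TWIST2 was at the floor in every line and PRRX1 was at 0 in both controls and 30.5 ± 15.4 in G2. Of 3 tested Schwann cell markers, 1 was higher and 1 lower in each G2 comparison, and SOX10 and FOXD3 were at the floor. The part of these marker differences in the heparan sulfate differences was not tested, and in bulk RNA fewer cells of a type and less RNA per cell cannot be told apart.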

How the data were processed

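Polyadenylated RNA was sequenced as paired, stranded libraries, 8 in all. Per the labels and the study's methods, STAR aligned the reads (hg38) and featureCounts (Subread 1.5.0) assigned them to FAST DB genes. The signal that the authors deposited is each count after division by the DESeq2 size factor of its library, without scaling to length. The strand setting and the handling of reads with several matches are not given in the sources used here. Every value of every library was a whole multiple of 1 step, within a tolerance of 0.01, and for all but WT replicate 2 the recovered whole counts could be checked.

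The 35 genes and the pathway and marker lists were chosen with earlier results of these data known. All 8 libraries were fitted together with limma 3.58.1 (R 4.3.3, trend) on log2(value + 1), with 1 mean per line, over 18947 genes of mean 10 or more. Counts called used a fold of 1.5 and p of 0.05. The fit was tested on simulated data. Every member was accounted for. Values per library were given for members called in a G2 comparison with a mean of at least 100. At most 3 genes per pathway list were given with values, by smallest G2/SCR p. Some marker genes were named outside this rule. Some genes that this rule would name are not reported here. A line with no library above 9 recovered counts was taken as at the floor, and folds against it are lower bounds computed with 9 counts in each library. Lengths came from GENCODE 44 transcripts, promoters from RefSeq (GRCh38.p14). Intervals are 95% and cover counting error only. Alternatives were other pseudocounts, filters, scalings, thresholds, a replicate block, left-out libraries, and DESeq2 1.42.0 and edgeR 4.0.16 on recovered counts for G2/SCR. The table held no column outside the 8 libraries that was used.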

Additional observations from a re-analysis of the deposited data

How the results depend on the processing

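Over all alternatives, 1668 results of the 30 genes, each a log2 fold change with its call, were set against the main fit. Other thresholds, other filters and a library left out of the line not compared could change the call but not the log2 fold change. Direction and call stayed the same in 1601 of the 1668, 32 lost a call, 16 gained one, and 19 changed sign, all of them values that were not called. DESeq2 and edgeR on the recovered counts gave the same calls for all 30 genes in G2/SCR. They were not run against WT, because the recovery could not be checked for WT replicate 2. Depth limits HS3ST3A1, HS3ST3B1, GPC5 and NDST3, whose control values rest on few counts.

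With a fold of at least 2 in place of 1.5, the number of genes called lower was 1 against SCR (3 at 1.5) and 1 against WT (2 at 1.5) for G2, and in SCR/WT 2 were higher (7 at 1.5) and 3 lower (5 at 1.5). Scaling all libraries to the same total moved the median log2 fold change of all genes to -0.10 in G2/SCR, 0.19 in G2/WT and 0.28 in SCR/WT. Of all genes called, the share called higher went from 56.2% to 47.5% in G2/SCR, from 59.3% to 75.7% in G2/WT, and from 65.6% to 90.6% in SCR/WT. Under this scaling the members called were 15 higher and 4 lower for G2/SCR, 21 higher and 2 lower for G2/WT, and 8 higher and 4 lower for SCR/WT. It turned the sign in SCR/WT for HS2ST1 (0.17), EXTL2 (0.19), GPC6 (0.19), EXTL3 (0.20) and HS6ST2 (0.031), in G2/SCR for SDC1 (-0.026), and in G2/WT for NDST1 (0.16) and GPC2 (0.038). GPC1 (0.76), GPC6 (0.61) and EXTL3 (0.69) passed in G2/WT.

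Same-numbered libraries of G2 and SCR had correlations of deviations of -0.13, 0.05 and 0.15, so the numbers did not pair the samples. With a replicate block, the members called were 15 higher and 3 lower for G2/SCR, 18 higher and 2 lower for G2/WT, and 5 higher and 5 lower for SCR/WT, EXTL1 in G2/WT went to -0.058 and HS3ST3A1 in SCR/WT to -0.13.

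Leaving out each library in turn gave 15 to 16 genes higher and 3 to 4 lower for G2/SCR, 18 to 19 higher and 2 lower for G2/WT, and 5 to 7 higher and 4 to 5 lower for SCR/WT. Log2 fold changes that changed sign then ranged from -0.11 to 0.091 for EXTL1 in G2/WT, -0.32 to 0.10 for HS2ST1 in SCR/WT, -0.32 to 0.14 for GPC6 in SCR/WT, -0.16 to 0.24 for HS3ST3A1 in SCR/WT, -0.033 to 0.14 for SDC4 in SCR/WT, -0.13 to 0.079 for NDST1 in G2/WT and -0.18 to 0.037 for EXTL3 in SCR/WT. The cause of these changes was not tested. Where a group was left with 1 library, that library was assumed to vary like the others.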
